A study of Sus scrofa with 12 samples.

Results

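The proteasome genes on the array were described over pregnancy and breed in the endometrium of 12 sows. Members were all genes with a probe set that carried exactly 1 gene symbol made of PSMA, PSMB, PSMC, PSMD, PSME, PSMF or PSMG and a number. A probe set is a group of short array probes read as 1 value, and a gene with several was read from the one whose mean over all arrays was highest. This rule gave 40 genes of 6765 genes with 1 symbol, drawn from 46 probe sets. Of these, 36 were constitutive or regulatory genes and 4 were inducible by interferon. The inducible gene PSMB9 had no probe set under its symbol and was not analysed here.

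All 12 animals were female pigs (Sus scrofa), sampled on Day 14 after insemination with 1 array per sow. The 6 pregnant sows were 3 Yorkshire and 3 Landrace sows, and the 6 non-pregnant sows, inseminated with inactivated semen, were likewise 3 Yorkshire and 3 Landrace sows. Endometrium without the muscle layer was taken from the ends and the middle of each uterine horn after the horns had been rinsed with saline holding 1% fetal calf serum, and RNA was extracted with TRIzol. A specimen therefore mixed epithelium, stroma, vessels, immune cells and any conceptus tissue that stayed attached, and in such bulk tissue fewer cells of a type cannot be told apart from less RNA per cell.

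The proteasome degrades proteins that carry ubiquitin chains. Its barrel-shaped core is built of outer rings of alpha subunits and inner rings of beta subunits, and only the beta subunits PSMB5, PSMB6 and PSMB7 cut protein. A regulatory particle caps the barrel: its ATPases unfold the substrate and its other subunits bind and remove ubiquitin. Under interferon-gamma, PSMB8, PSMB9 and PSMB10 take the places of PSMB5, PSMB6 and PSMB7, and the activator subunits PSME1 and PSME2 are made in larger amounts, which changes the peptides offered to T cells on class I molecules. In the pig, the elongating conceptus itself secretes interferon-gamma around the time of attachment.

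Values are log2 expression values, and a difference is given in log2 units as pregnant minus non-pregnant, or Landrace minus Yorkshire, with its standard error. The deposited values were normalized so that the arrays had like distributions, so each difference is measured against the rest of its array. A difference was called when its adjusted p in limma, over 23999 probe sets, was under 0.05. All 40 members lay above the median of their array on all 12 arrays, so none was left out for a low value. Array medians ran from 6.25 to 6.30, and an array's correlation with its nearest array, over probe sets, was 0.975 to 0.992. The lowest of these correlations was that of non-pregnant Landrace sow 7. Among endometrial markers 5 of 8 were measured, of which 1 was called higher and 1 lower in pregnancy. The latter, ESR1, an oestrogen receptor, lay at 7.28 to 7.93 in non-pregnant and 6.73 to 7.26 in pregnant sows.

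The constitutive proteasome genes were lower in pregnant sows. All 36 had a difference below 0, with a median of -0.24 and a range of -0.56 to -0.01. The test called 11 of the 36, all of them lower in pregnancy, and 25 of the 36 had an unadjusted p under 0.05. Over all probe sets 5574 of 23999 had such a p, and 1605 of the 4096 genes whose mean was at or above that of the dimmest member. Over all probe sets 3.94% were called lower, over genes with 1 symbol 7.48%, and over those 4096 genes 10.8%. None of the 36 was called higher, whereas 3.95% of all probe sets were. For comparison, the median difference was 0.01 over all probe sets and -0.06 over the 4096 genes, of which 61.0% lay below 0. For 5 of the 36 the lowest non-pregnant sow lay above the highest pregnant sow. This was so for 1.40% of all probe sets, 203 of the 6765 genes with 1 symbol and 181 of the 4096 genes.

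**Figure D1:**
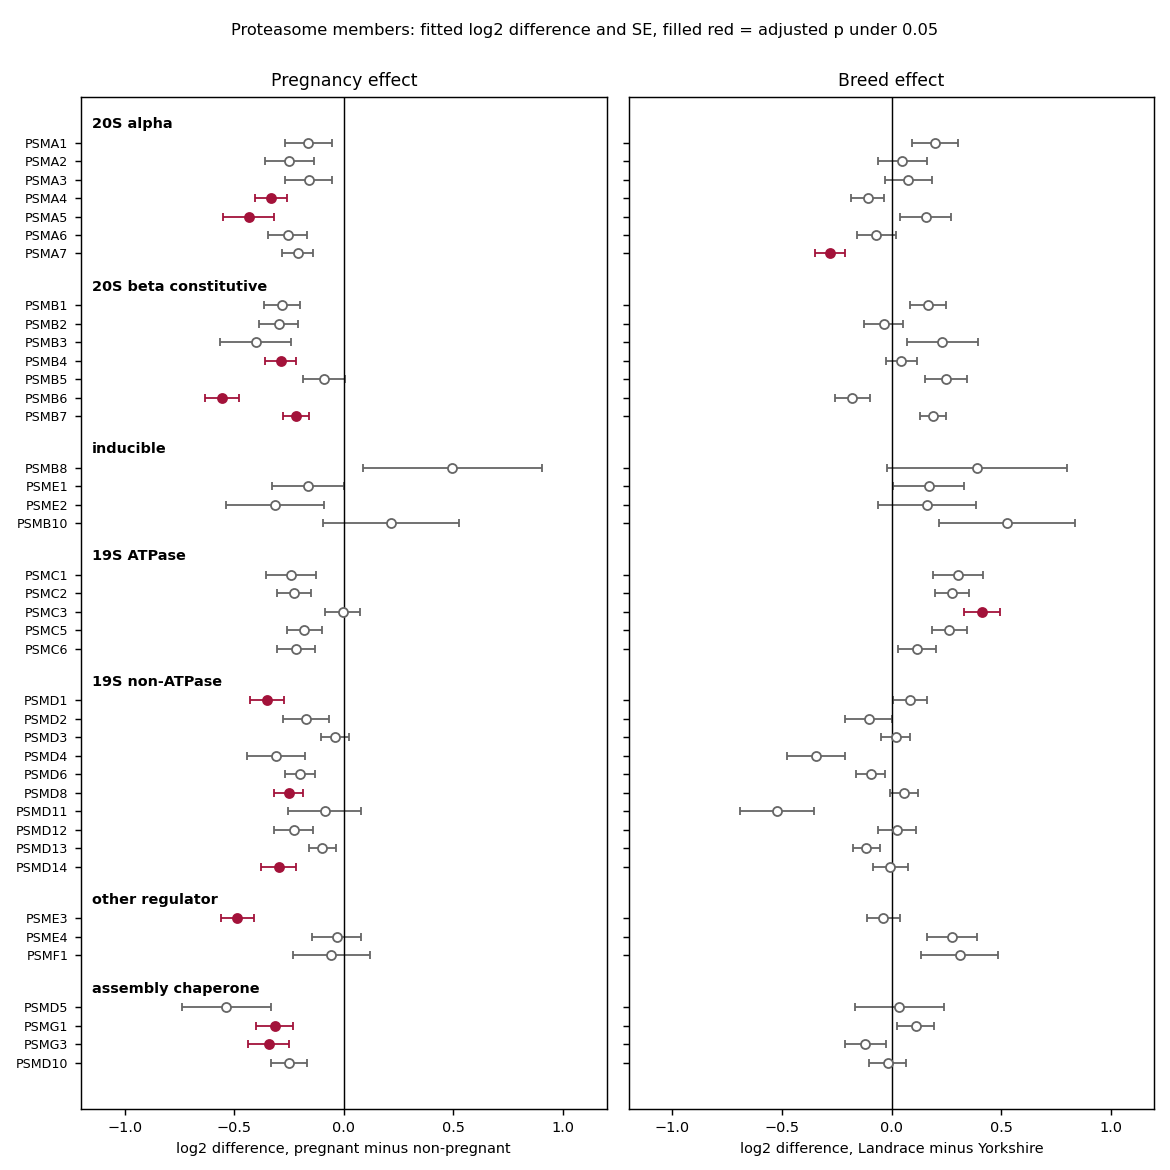
Fitted log2 difference (x axes; bars, standard error) of each of the 40 proteasome genes by role, for pregnant minus non-pregnant sows on the left and Landrace minus Yorkshire sows on the right, 6 against 6 sows each, with called genes filled in red and the core and regulatory particle under their sedimentation names 20S and 19S. On the left all 36 constitutive and regulatory genes lie below 0 and the inducible PSMB8 and PSMB10 lie above 0 with wide bars, and on the right PSMC3 and PSMA7 are the called genes.

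In the alpha rings, which form the gated entrance to the core, 2 of 7 genes were called, and the class median was -0.25. PSMA4 ranged from 9.49 to 9.80 in non-pregnant sows, with a median of 9.59, and from 9.12 to 9.45 in pregnant sows, with a median of 9.27. The groups did not overlap, and PSMA4 fell by 0.33 ± 0.07 (adjusted p = 0.0201), a change of -20.6%. PSMA5 ranged from 8.82 to 9.47 with a median of 9.11 in non-pregnant sows, and from 8.47 to 8.97 with a median of 8.73 in pregnant sows. These ranges overlapped, but all 6 pregnant sows lay below the non-pregnant mean, and PSMA5 fell by 0.43 ± 0.12 (adjusted p = 0.0422). The other 5 alpha genes had differences of -0.26 for PSMA6 to -0.16 for PSMA3, and PSMA7 and PSMA6 came nearest to the threshold, with adjusted p of 0.0822 and 0.0990.

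The beta rings held the largest fall among the members. PSMB6, the constitutive subunit with caspase-like activity, ranged from 9.49 to 9.95 in non-pregnant sows, with a median of 9.65, and from 8.84 to 9.31 in pregnant sows, with a median of 9.13. The groups were separate. PSMB6 fell by 0.56 ± 0.08 (adjusted p = 0.00464), a change of -32.0%. PSMB7, with trypsin-like activity, ranged from 9.86 to 10.16 in non-pregnant sows and from 9.64 to 10.01 in pregnant sows, with medians of 9.995 and 9.75. It fell by 0.22 ± 0.06 (adjusted p = 0.0410), with 5 of 6 pregnant sows below the non-pregnant mean.

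PSMB5, the third catalytic subunit, with chymotrypsin-like activity, was not called. It ranged from 9.39 to 9.94 in non-pregnant and from 9.30 to 9.77 in pregnant sows, and its difference was -0.09 ± 0.10 (adjusted p = 0.640, 95% confidence interval -0.30 to 0.12). The estimate for PSMB6 lies outside that interval and the estimate for PSMB7 within it; a difference between the genes was not tested. Among beta subunits without catalytic activity, PSMB4 ranged from 10.62 to 10.96, with a median of 10.78, in non-pregnant sows and from 10.43 to 10.63, with a median of 10.50, in pregnant sows. It fell by 0.29 ± 0.07 (adjusted p = 0.0312), the groups overlapping only where the highest pregnant sow passed the lowest non-pregnant sow. PSMB1 (-0.28, adjusted p = 0.0520), PSMB2 (-0.30, adjusted p = 0.0632) and PSMB3 (-0.40, adjusted p = 0.154) were not called, and the class median of the 7 beta genes was -0.29.

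**Figure D2:**
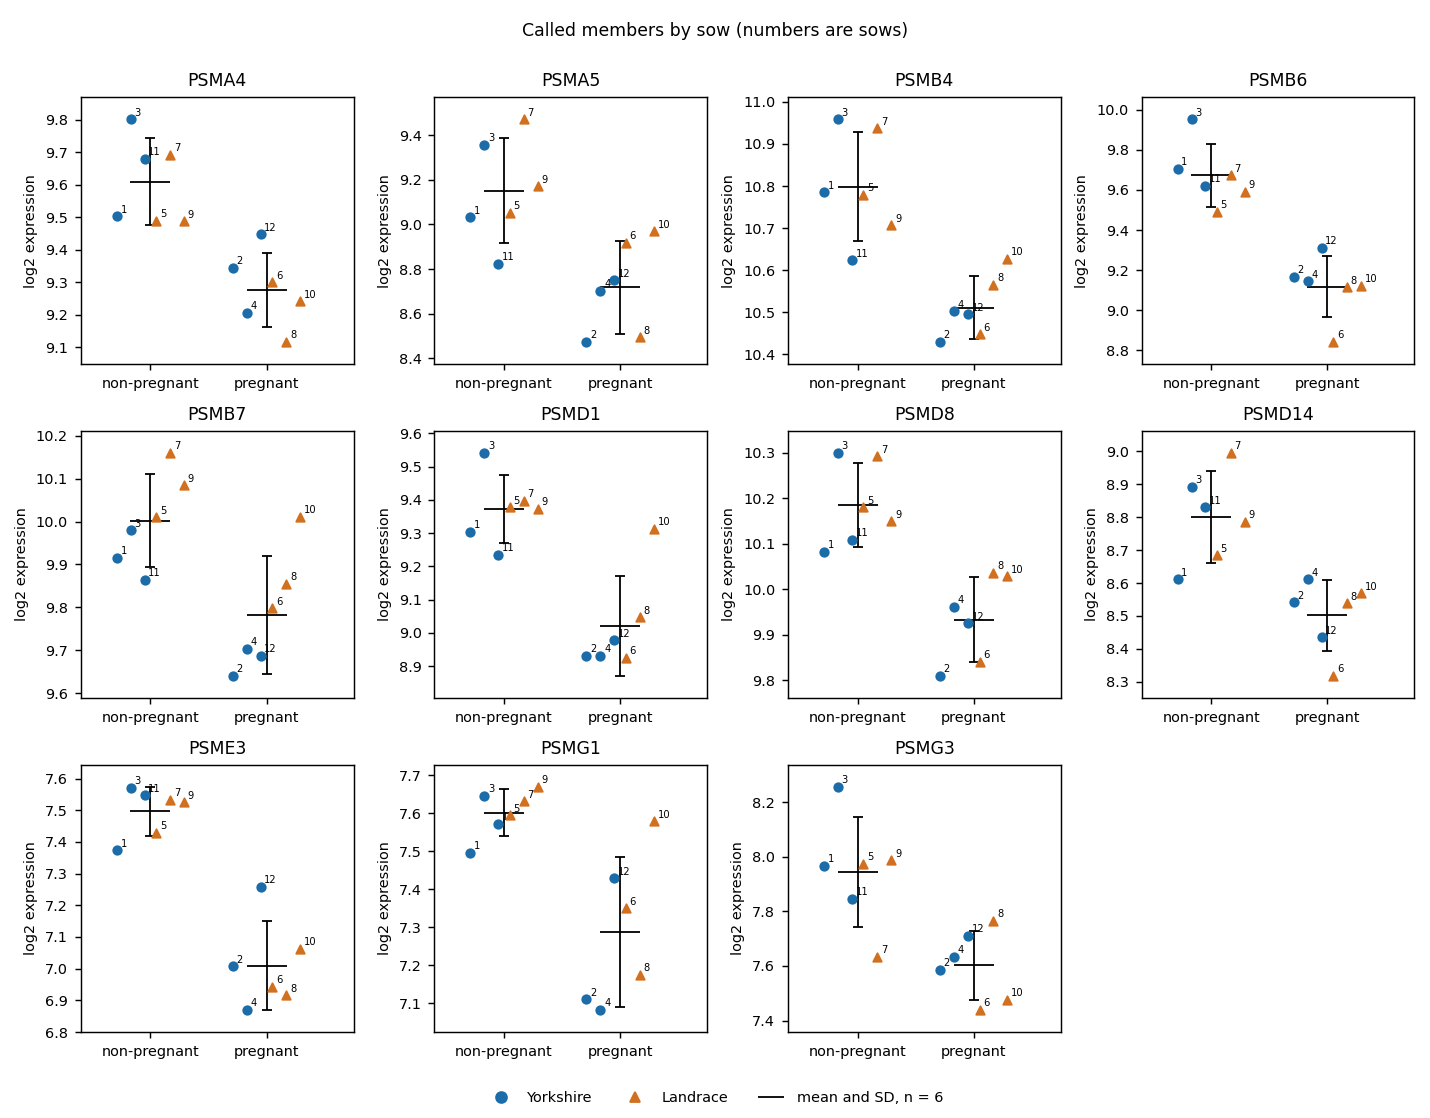
Log2 expression (y axes) of the 11 constitutive genes called for pregnancy, 1 numbered point per sow, with Yorkshire sows as circles and Landrace sows as triangles, and lines for the mean and SD of each group (n = 6). PSMA4, PSMB6, PSMD8, PSMD14 and PSME3 show no overlap between the 6 pregnant and the 6 non-pregnant sows.

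In the regulatory particle, 0 of 5 ATPases and 3 of 10 other subunits were called. The ATPases PSMC1, PSMC2, PSMC5 and PSMC6 had differences of -0.24 to -0.18, none called, and 3 of the 5 had an unadjusted p under 0.05. PSMC3 had a difference of -0.01 ± 0.08 (95% confidence interval -0.18 to 0.17). Among the others, PSMD1, the large scaffold subunit of the base, ranged from 9.24 to 9.54 in non-pregnant sows, with a median of 9.38, and from 8.92 to 9.31 in pregnant sows, with a median of 8.95. Pregnant sow 10 alone reached into the non-pregnant range, and PSMD1 fell by 0.35 ± 0.08 (adjusted p = 0.0203). A second probe set of PSMD1 gave -0.26, with an adjusted p of 0.05004, just above the threshold.

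PSMD8, a subunit of the lid, ranged from 10.08 to 10.30 in non-pregnant sows (median 10.17) and from 9.81 to 10.04 in pregnant sows (median 9.94). The groups did not overlap, and it fell by 0.25 ± 0.07 (adjusted p = 0.0378). PSMD14, the enzyme that takes the ubiquitin chain off a substrate, ranged from 8.61 to 8.995 (median 8.81) in non-pregnant and from 8.32 to 8.61 (median 8.54) in pregnant sows. The groups touched without overlapping, and it fell by 0.30 ± 0.08 (adjusted p = 0.0418). PSMD4, a receptor for ubiquitin chains, had a difference of -0.31 (adjusted p = 0.184), and the scaffold subunit PSMD2 one of -0.17 (adjusted p = 0.369).

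Of 3 further regulators, PSME3 was called. PSME3 forms a nuclear activator that opens the core to some proteins without ubiquitin, and it ranged from 7.37 to 7.57 in non-pregnant sows (median 7.53) and from 6.87 to 7.26 in pregnant sows (median 6.98). The groups were separate, and PSME3 fell by 0.49 ± 0.07 (adjusted p = 0.00584), a change of -28.6%. PSME4, another nuclear activator, and PSMF1, an inhibitor of the core, had differences of -0.03 (adjusted p = 0.906) and -0.06 (adjusted p = 0.894).

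Among 4 assembly chaperones, which build the particles but are not part of the finished proteasome, 2 were called. PSMG1, which helps to assemble the alpha ring, ranged from 7.50 to 7.67 in non-pregnant sows (median 7.61) and from 7.08 to 7.58 in pregnant sows (median 7.26), and fell by 0.31 ± 0.08 (adjusted p = 0.0413). PSMG3, an alpha-ring chaperone as well, ranged from 7.63 to 8.26 (median 7.97) and from 7.44 to 7.77 (median 7.61), and fell by 0.34 ± 0.09 (adjusted p = 0.0459). Both overlapped between the groups, although all 6 pregnant sows lay below the non-pregnant mean. PSMD5, a chaperone of the base, had a difference of -0.54 ± 0.20 that was not called (adjusted p = 0.129), with 7.999 to 8.72 in non-pregnant and 7.32 to 8.50 in pregnant sows. PSMD10, also a base chaperone, had one of -0.25 (adjusted p = 0.0857).

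Sow by sow, the mean of the 36 constitutive genes, set to 0 at the non-pregnant mean, was below 0 in all 6 pregnant sows. It was -0.38 in sow 2, -0.33 in sow 4, -0.25 in sow 8, -0.24 in sow 6, -0.14 in sow 10 and -0.13 in sow 12. The non-pregnant sows ran from -0.14 in sow 1 to 0.13 in sow 7, so that sow 1 lay level with the highest pregnant sows. In sows 2 and 4 all 36 genes were below the non-pregnant mean, and the count was 27 to 30 in the other 4 pregnant sows. Among non-pregnant sows that count ran from 5 in sow 7 to 29 in sow 1.

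**Figure D3:**
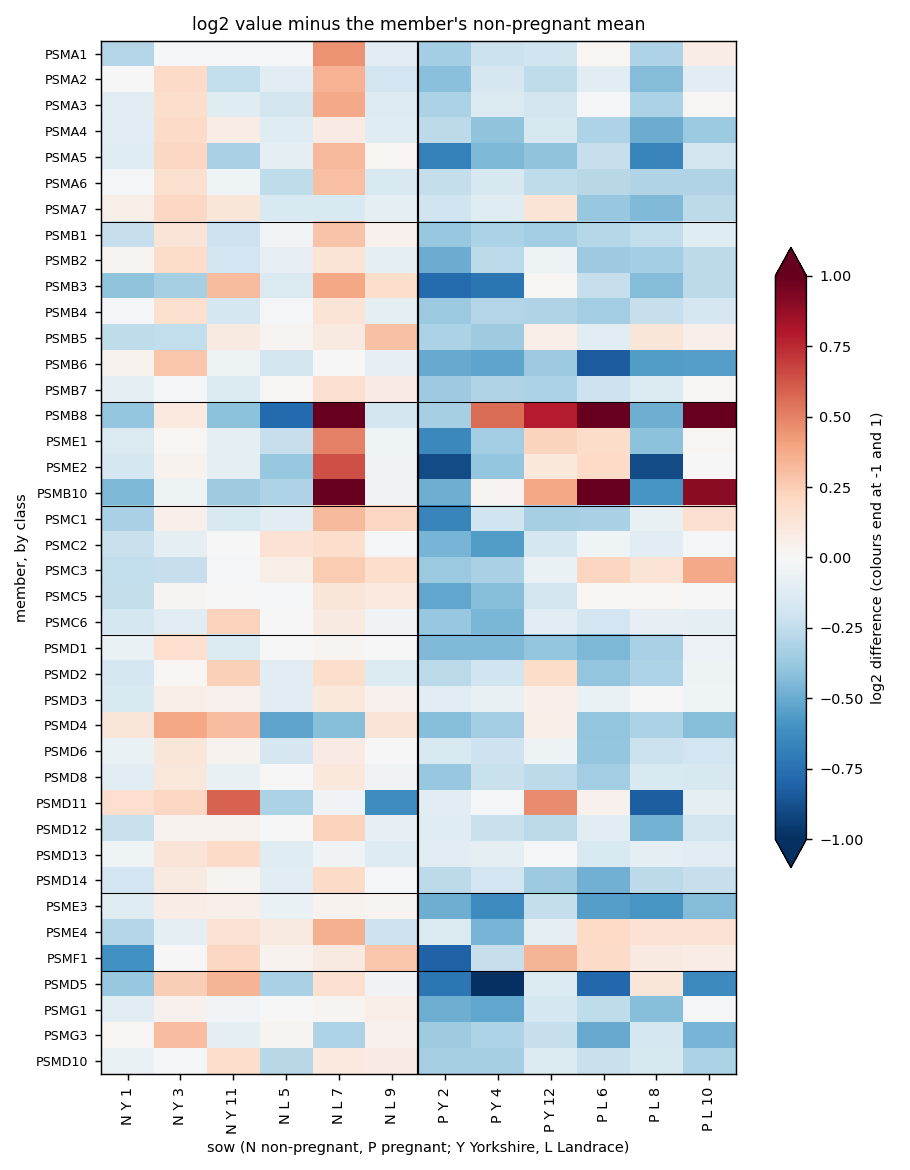
Each of the 40 proteasome genes (vertical axis, by role) in each of the 12 sows (horizontal axis, by group and breed), coloured by the log2 difference from the non-pregnant mean of that gene, with colours ending at -1 and 1. All 36 constitutive genes are below 0 in pregnant sows 2 and 4, while PSMB8 and PSMB10 are high in non-pregnant sow 7 and in pregnant sows 6, 10 and 12.

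The count of 11 changed when single sows were left out, a step that also leaves each fit with fewer arrays. It became 7 without sow 1, 3 without sow 2, 3 without sow 3, 4 without sow 4, 5 without sow 5, 3 without sow 6, 5 without sow 7, 5 without sow 9 and 7 without sow 10, and lay between 8 and 13 without sow 8, 11 or 12. PSMB6 and PSME3 were called in all 12 of these fits, PSMA4 in all but that without sow 3, and PSMD1 in all but those without sow 2 or 6. The other 7 genes were called in 1 to 5 of the 12. PSMD14, called in 1 of the 12, kept a difference of -0.34 to -0.25 in them. The number of all probe sets called in each of these fits is not given here. Between 33 and 36 of the 36 differences stayed below 0 throughout.

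Markers of the tissue's cell types also differed between the groups. Of 8 measured epithelial markers, 2 were lower in pregnancy, the keratin KRT8 by -0.83 (adjusted p = 0.0422) and the tight junction protein CLDN7 by -0.47 (adjusted p = 0.0272). In the list 6 differences lay below 0 and 2 above it, those of the cadherin CDH1 (0.34, adjusted p = 0.0876, with 6 of 6 pregnant sows above the non-pregnant mean) and of CLDN4 (0.42, adjusted p = 0.315, with 5 of 6 above). The list's mean ran from 10.28 to 10.63 in non-pregnant and from 9.83 to 10.65 in pregnant sows. Of 7 endothelial markers, 6 were higher, with list means of 6.37 to 6.95 against 7.11 to 7.77, and of 8 stromal markers 4 were higher and 1 lower, with list means of 9.49 to 10.06 against 9.75 to 10.36. Of 5 smooth muscle markers 1 was higher. Over all probe sets 3.94% were called lower and 3.95% higher. The 3' minus 5' difference of the GAPDH control probe sets, which grows with RNA breakdown, also went with pregnancy in Landrace sows, at 1.04, 0.87 and 0.97 in non-pregnant and 1.25, 1.15 and 1.15 in pregnant sows, with no overlap. In Yorkshire sows it was 1.31, 1.37 and 1.63 against 1.49, 1.59 and 1.55, and the groups overlapped. The part of these markers and of RNA quality in the proteasome differences was not tested.

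Genes that work with the proteasome were read from lists outside the member rule. Among partners of the particle 4 of 12 were measured and 1 was called: SEM1, a small lid subunit, ranged from 10.93 to 11.77 in non-pregnant and from 10.42 to 10.996 in pregnant sows and fell by 0.53 ± 0.13 (adjusted p = 0.0334). Among genes that supply and activate ubiquitin 10 of 15 were measured and 3 were called, all lower. All 3 were ubiquitin-conjugating enzymes, as were most of the 10 measured genes. Of the 4096 genes at or above the mean of the dimmest member, 442 were called lower and 181 were lower without overlap. UBE2N fell by 0.52 (adjusted p = 0.00688) without overlap between the groups, UBE2D3 by 0.29 (adjusted p = 0.0293), also without overlap, and UBE2L3 by 0.28 (adjusted p = 0.0281). Of 5 measured genes of 13 that deliver substrates none was called and 2 had an unadjusted p under 0.05, with VCP, the ATPase that extracts ubiquitinated proteins, at -0.33 (adjusted p = 0.0720) and its cofactor NSFL1C at -0.24 (adjusted p = 0.104). Of 10 genes listed for transcriptional control of the constitutive subunits, 3 were measured, none was called and 1 had an unadjusted p under 0.05. FOXO1 had a difference of 0.47 (adjusted p = 0.182) and FOXO3 one of 0.20 (adjusted p = 0.494).

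The inducible subunits varied more among the sows of a group than between the groups. None of the 4 was called for pregnancy, and none had an unadjusted p under 0.05. PSMB8, which replaces PSMB5, ranged from 7.73 to 10.16 in non-pregnant sows (median 8.22) and from 8.02 to 9.83 in pregnant sows (median 9.18), a difference of 0.50 ± 0.41 (adjusted p = 0.537, 95% confidence interval -0.40 to 1.39). PSMB10, which replaces PSMB7, ranged from 7.21 to 8.87 (median 7.48) and from 7.07 to 8.72 (median 7.87), a difference of 0.22 ± 0.31 (adjusted p = 0.752, 95% confidence interval -0.46 to 0.89). For both genes sow 7 was the highest of all 12 sows, followed by pregnant sows 6, 10, 12 and 4, while pregnant sows 2 and 8 lay in the range of the other non-pregnant sows or just below it.

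The activator subunits had differences of the opposite sign, also not called. PSME1 ranged from 9.56 to 10.29 in non-pregnant sows (median 9.72) and from 9.14 to 10.02 in pregnant sows (median 9.63), a difference of -0.16 ± 0.16 (adjusted p = 0.623, 95% confidence interval -0.52 to 0.19). PSME2 ranged from 10.07 to 11.10 (median 10.38) and from 9.55 to 10.65 (median 10.25), a difference of -0.31 ± 0.22 (adjusted p = 0.456, 95% confidence interval -0.80 to 0.17). Here too sow 7 was highest, and the lowest values belonged to pregnant sows 2 and 8. The 5 highest sows were 3, 6, 7, 10 and 12 for both activator genes.

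**Figure D4:**
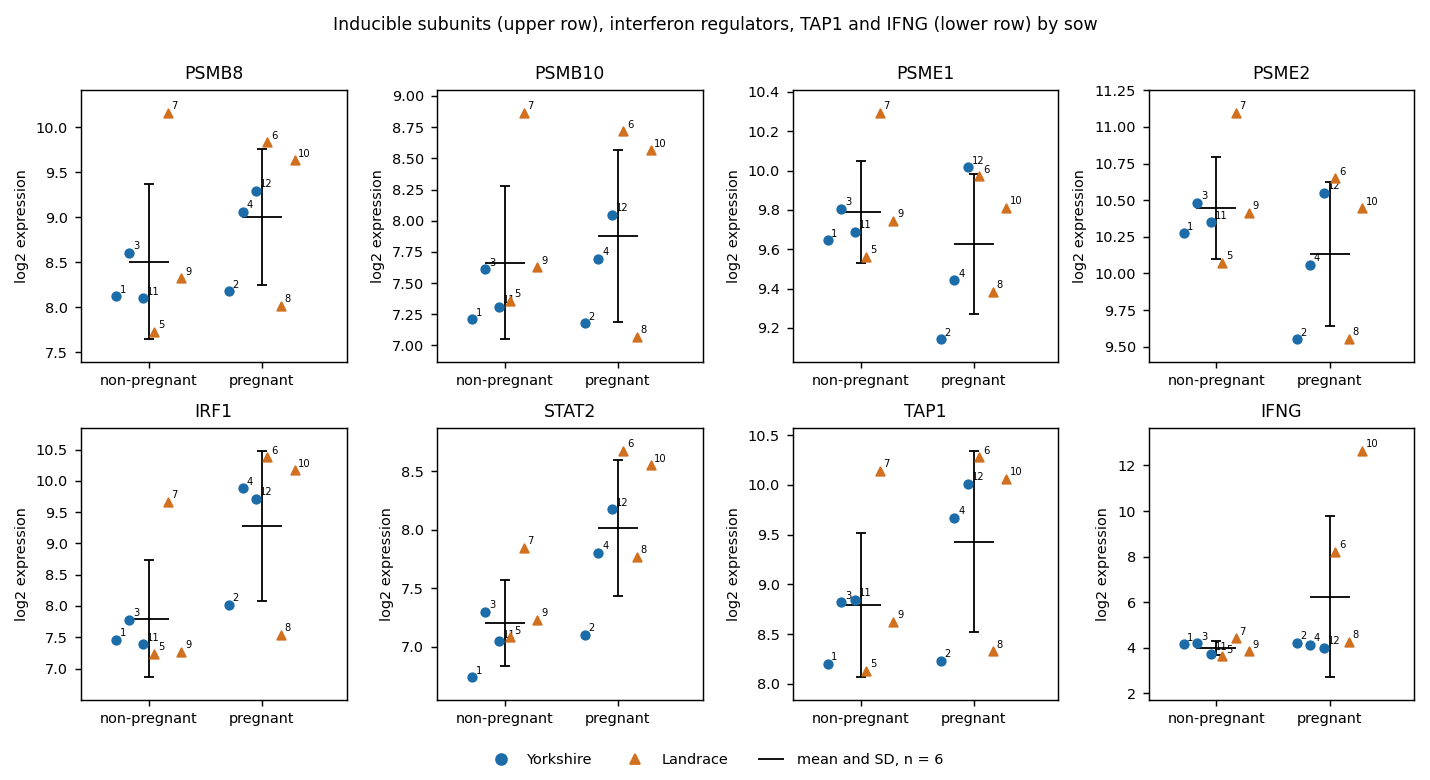
Log2 expression (y axes) of the inducible subunits PSMB8, PSMB10, PSME1 and PSME2 in the upper panels and of IRF1, STAT2, TAP1 and IFNG in the lower panels, 1 numbered point per sow, Yorkshire as circles and Landrace as triangles, with lines for the mean and SD of each group (n = 6). Non-pregnant sow 7 is the highest point in each upper panel, pregnant sows 2 and 8 stay low there, and IFNG stands out in pregnant sows 10 and 6.

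The spread within groups set what could be seen. The residual SD was 0.31 to 0.82 for the inducible genes, with a median of 0.53, against a median of 0.14 for the constitutive genes and 0.17 for all probe sets. Without sow 7 the difference became 0.82 ± 0.33 for PSMB8 (adjusted p = 0.143), 0.42 ± 0.27 for PSMB10 (adjusted p = 0.388), -0.07 ± 0.15 for PSME1 (adjusted p = 0.837) and -0.19 ± 0.21 for PSME2 (adjusted p = 0.654). None was called in that fit either. The marker values of sow 7 stood apart as well: the mean of 17 measured leucocyte markers was 7.42 there, 5.72 to 5.96 in the other non-pregnant sows and 5.93 to 6.36 in pregnant sows. No leucocyte marker was called for pregnancy, 1 of the 17 had an unadjusted p under 0.05, and the part of these cells in the inducible values was not tested.

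IFNG, the gene of interferon-gamma, was high in 2 pregnant sows, at 12.65 in sow 10 and 8.21 in sow 6, and lay between 3.61 and 4.41 in the other 10 sows. PSMB8 was 9.63 and 9.83 in those sows, and it was 9.29 in sow 12, 9.06 in sow 4 and 10.16 in non-pregnant sow 7, where IFNG was at the low level. CYP11A1, another marker listed for conceptus trophoblast and named after its values were seen, was 5.95 in sow 10, above the 3.77 of the highest non-pregnant sow. Of the 9 measured trophoblast markers none was called for pregnancy and 1 had an unadjusted p under 0.05. The list's mean includes IFNG itself and is therefore not separate from the IFNG values above. It ran from 5.003 to 5.40 in non-pregnant sows. In pregnant sows it was 6.86 in sow 10, 5.69 in sow 6 and 5.13 to 5.21 in the others. The part of conceptus tissue in the inducible values was not tested.

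Exchange of subunits in assembled proteasomes was not measured, and in mixed tissue the RNAs of a pair can come from different cells. Within each sow the RNA value of the inducible gene minus that of the gene it replaces was taken, each relative to its non-pregnant mean. For PSMB8 over PSMB5 this was -0.61 to 1.44 in pregnant sows, with a mean of 0.59 ± 0.76 (SD, n = 6), and -0.80 to 1.56 in non-pregnant sows. For PSMB10 over PSMB7 it was -0.45 to 1.26 in pregnant sows, with a mean of 0.43 ± 0.64 (SD, n = 6), and -0.37 to 1.05 in non-pregnant sows. Both were above 0 in 4 of 6 pregnant sows, sows 4, 6, 10 and 12, and the ranges of the groups overlapped over most of their length. Among non-pregnant sows the first was above 0 in sows 3 and 7, and the second in sow 7 alone. The 0 is the non-pregnant mean, which the high value of sow 7 raised. Medians were -0.30 and -0.17 in non-pregnant sows and 0.82 and 0.51 in pregnant sows.

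Genes that control or share the interferon response were listed apart. Of 12 such controllers 9 were measured and 2 were called, both higher in pregnancy. Over all probe sets 3.95% were called higher, as were 246 of the 4096 genes at or above the mean of the dimmest member. IRF2, an interferon regulatory factor, ranged from 8.40 to 8.85 in non-pregnant and from 8.70 to 9.15 in pregnant sows and rose by 0.49 ± 0.08 (adjusted p = 0.00688). STAT2, a signal transducer of type I interferon, ranged from 6.74 to 7.84 and from 7.10 to 8.68 and rose by 0.81 ± 0.22 (adjusted p = 0.0416). Of 20 genes that supply peptides to class I molecules 13 were measured, none was called and 3 had an unadjusted p under 0.05. The smallest p-values belonged to the class I genes SLA-2 (0.45, adjusted p = 0.110) and SLA-6 (0.33, adjusted p = 0.121).

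The order of the sows linked PSMB8 and PSMB10 with genes chosen here after their values were seen. The 5 highest sows, 4, 6, 7, 10 and 12, were also the 5 highest for STAT2, for the transcription factor IRF1 and for the peptide transporter TAP1. Altogether 160 of 23999 probe sets, 0.667%, had those same 5 sows on top. Of the 17 measured leucocyte markers, CD2, CD14, AIF1 and FCER1G were among them and the others were not. GBP1, GBP2 and the class II genes SLA-DRA and SLA-DQA1 were among them too. What lies behind the shared order was not tested. IRF1 had a difference of 1.48 (adjusted p = 0.126) and TAP1 one of 0.64 (adjusted p = 0.419), and neither was called. In RefSeq annotation of the pig assembly Sscrofa11.1, PSMB8 lies between TAP2 and TAP1, and PSME2 and PSME1 lie near IRF9 with EMC9 between them.

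The share of constitutive genes called for breed was near that of all probe sets. Of the 36 constitutive genes 2 were called, against 5.15% of all probe sets. An unadjusted p under 0.05 was found for 11 of the 36 and for 4842 of the 23999 probe sets. PSMC3, an ATPase of the base, ranged from 9.12 to 9.47 in Yorkshire sows (median 9.25) and from 9.54 to 9.86 in Landrace sows (median 9.68). The breeds did not overlap, which was so for 2.98% of all probe sets, and PSMC3 was higher in Landrace by 0.41 ± 0.08 (adjusted p = 0.0133). PSMA7, an alpha subunit, ranged from 9.85 to 10.26 in Yorkshire sows (median 10.14) and from 9.60 to 9.96 in Landrace sows (median 9.84), and was lower in Landrace by -0.28 ± 0.07 (adjusted p = 0.0350).

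The other ATPases also had differences above 0, none called: PSMC1 0.30 (adjusted p = 0.156), PSMC2 0.28 (adjusted p = 0.0633), PSMC5 0.26 (adjusted p = 0.0847) and PSMC6 0.11 (adjusted p = 0.516). Of the 36 genes 22 were above 0 and 14 below it, with a median of 0.05. The lid subunit PSMD11 had the lowest difference, -0.52 (adjusted p = 0.0972), and its other probe sets gave -0.57 and, at a dimmer level, -0.02. For PSMF1 the probe sets differed in sign, at 0.31 and -0.09, as did those of PSMD1, at 0.09 and -0.09.

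None of the 4 inducible genes was called for breed, and none had an unadjusted p under 0.05. Landrace minus Yorkshire was 0.39 ± 0.41 for PSMB8 (adjusted p = 0.659), 0.53 ± 0.31 for PSMB10 (adjusted p = 0.382), 0.17 ± 0.16 for PSME1 (adjusted p = 0.620) and 0.16 ± 0.22 for PSME2 (adjusted p = 0.752). Yorkshire values of PSMB8 ran from 8.10 to 9.29 and Landrace values from 7.73 to 10.16, so the Landrace sows spanned the Yorkshire sows. These values rested on single sows. Without sow 7 they became 0.07 for PSMB8, 0.32 for PSMB10, 0.08 for PSME1 and 0.03 for PSME2, the lowest when 1 sow was left out. The highest were 0.65 for PSMB8, 0.76 for PSMB10 and 0.31 for PSME2, all without sow 8, and 0.28 for PSME1 without sow 12. None was called in any of these fits.

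The GAPDH sign of RNA quality went with breed as well. It was 1.31 to 1.63 in Yorkshire and 0.87 to 1.25 in Landrace sows, with no overlap, and its part in the breed differences was not tested. Leaving out 1 sow at a time, PSMC3 was called in all 12 fits and PSMA7 in 3, namely those without sow 1, 2 or 10. The count of called genes was 1 without sow 3, 4, 5, 6, 7, 8, 9 or 11. The shares of all probe sets called in these fits are not given here.

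The difference over all 12 arrays is the mean of the differences within the breeds, which are therefore no separate test of it. Of the 4096 genes at or above the mean of the dimmest member, 2551 lay below 0 in Yorkshire and 2376 in Landrace. Among the constitutive genes most lay below 0 within each breed. In Yorkshire sows all 36 did, with a median of -0.26, and 16 had an unadjusted p under 0.05, but 0 were called, as were 0% of all probe sets, of which 3667 had an unadjusted p under 0.05. The Yorkshire count was 16 with array weights and 5 without sows 7 and 12. The share of all probe sets called in those settings is not given here, so these counts have no background beside them. In Landrace sows 33 of 36 did, with a median of -0.23, 15 had an unadjusted p under 0.05, as did 3726 of all probe sets, and 1 was called, against 1.03% of all probe sets. The GAPDH values given above for Landrace sows were separate between these groups. That gene was PSMB6. In Landrace it was 9.49, 9.67 and 9.59 in non-pregnant and 8.84, 9.11 and 9.12 in pregnant sows, a fall by 0.56 ± 0.12 (adjusted p = 0.0497). In Yorkshire it was 9.71, 9.95 and 9.62 against 9.17, 9.14 and 9.31, a difference of -0.55 ± 0.12 (adjusted p = 0.0949).

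**Figure D5:**
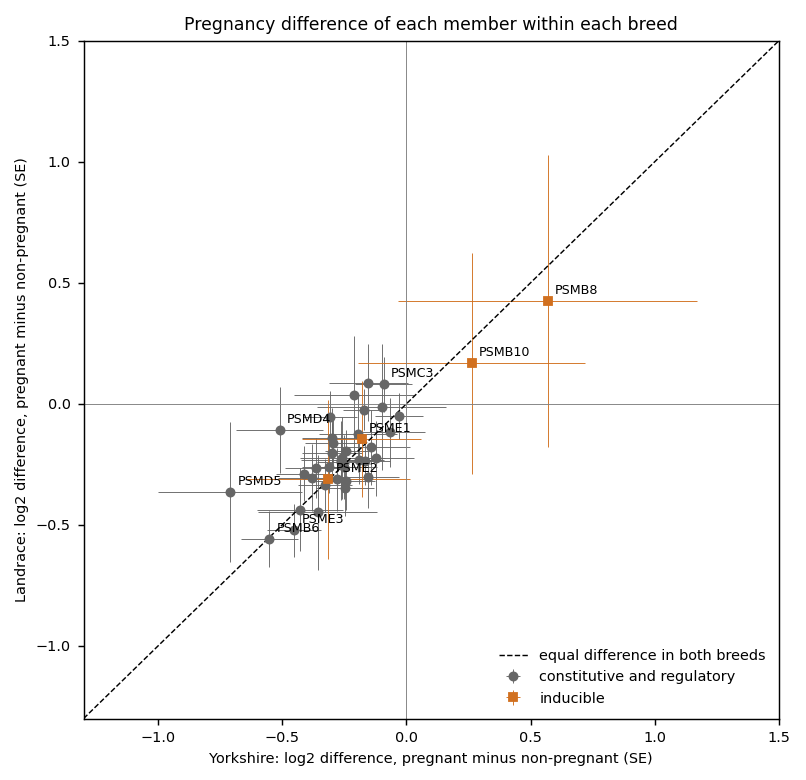
Pregnant minus non-pregnant log2 difference in Landrace sows (y axis) against that in Yorkshire sows (x axis), each over 3 against 3 sows with bars for the standard error, for the 40 proteasome genes, and a dashed line where both breeds are equal. PSMB6 lies at -0.55 in Yorkshire and -0.56 in Landrace, and the constitutive genes lie below 0 in both breeds apart from 3 that lie above 0 in Landrace.

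PSME3 was close to the threshold in Landrace, at -0.52 ± 0.11 (adjusted p = 0.0507), and was -0.45 ± 0.11 in Yorkshire (adjusted p = 0.115). The Landrace call of PSMB6 was at the threshold: the count of called genes was 0 without sow 1, 2, 5, 6, 7, 9, 10 or 11 and 2 without sow 12. The Yorkshire count was 4 without sow 12 and 0 without any other single sow. Shares over all probe sets in these fits are not given here. None of the inducible genes was called within a breed, and none had an unadjusted p under 0.05.

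The difference between the breeds in the effect of pregnancy was called for 0 of 40 members, with 0 at an unadjusted p under 0.05, and for 0% of all probe sets, of which 963 had an unadjusted p under 0.05. For the constitutive genes it ran from -0.15 to 0.40. For PSMB6 it was -0.01 (95% confidence interval -0.37 to 0.35), and for PSMB8 it was -0.14 (95% confidence interval -2.02 to 1.73), an interval wide enough to hold an opposite response of either breed.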

How the data were processed

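Endometrium of 12 sows was measured on Affymetrix porcine arrays, 1 array per sow. The authors deposited log2 expression values per probe set, and the submitters' processing notes name RMA, affy and limma without versions. RMA corrects background, equalizes the arrays' distributions and summarizes probes, so changes of total RNA cannot be seen and differences of dim genes are understated. No count underlies these values, and the number of arrays limits the precision. Of 24123 probe sets, 124 manufacturer controls were left out and 23999 were tested. No column went unused.

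Tests used limma 3.58.1 (R 4.3.3) with lmFit and eBayes (two-sided, Benjamini-Hochberg adjustment over all tested probe sets, threshold 0.05). Pregnancy and breed were additive terms over all 12 arrays (9 residual degrees of freedom). Effects within breeds and their difference came from a fit of 4 groups (8 residual degrees of freedom). No count of members was itself tested. These fits were checked on simulated data with known changes.

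Symbols came from the platform annotation. The gene identifiers of all 40 members were found in the RefSeq table of Sscrofa11.1, with unchanged symbols. As the array's genome build is not given in the sources used here, coordinates are not printed, and no sequences were used. The labels describe separate animals and give no scan batches. Members, classes and gene lists were chosen with earlier results of these data known. Values were printed for every called member, the inducible genes and the catalytic subunits they replace, for other members by smallest p, and for list genes called (at most 4 a list) or the 2 with the smallest p. Single members outside this rule were named after their values were seen. Alternatives were cyclic loess, median centring, array weights, dropping the breed term, a filter on dim probe sets (kept if above the overall median on 3 or more arrays), the intensity trend and robust prior of limma, the mean of both within-breed contrasts, leaving out sows 7 and 12, the mean of a gene's probe sets, an adjusted p under 0.01, and leaving out each sow.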

Additional observations from a re-analysis of the deposited data

Results flagged for a closer look

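Among 36 groups of 6 sows for 18 named members, 4 values lay farther from the other sows of their group than Dixon's 95% limit allows, and chance gives about 1 in 20. Inducible genes in non-pregnant sow 7 were among them: PSMB8 at 10.16, where the next sow was at 8.61, PSMB10 at 8.87, where the next was at 7.63, and PSME1 at 10.29, where the next was at 9.81. The other was PSMD1 in pregnant sow 10, at 9.31, where the next pregnant sow was at 9.05. Sow 7 also had the highest mean of the leucocyte markers, 7.42, and sow 10 the highest IFNG, 12.65.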

How the results depend on the processing

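The 11 constitutive genes called for pregnancy became 6 with cyclic loess, 6 with an intensity trend and robust prior, 7 with no breed term, 5 with the average of the within-breed contrasts and 2 at an adjusted p under 0.01, which PSMB6 and PSME3 passed. Without 1 sow at a time the count ran from 3 to 13, and without sows 7 and 12 together it was 8. The other alternatives gave 13 or 14. In all settings 33 to 36 of the 36 differences lay below 0 and 0 were called higher. The 2 called for breed became 4 with cyclic loess, 1 with the trend and robust prior, 1 without sows 7 and 12 and 0 at an adjusted p under 0.01, and ran from 1 to 2 without 1 sow. In Yorkshire the 0 became 16 with array weights and 5 without sows 7 and 12, and ran from 0 to 4 without 1 sow. In Landrace the 1 became 2 with cyclic loess, median centring, the filter on dim probe sets, array weights or the mean of a gene's probe sets, and 0 with the trend and robust prior or at an adjusted p under 0.01, and ran from 0 to 2 without 1 sow. No inducible gene was called in any comparison or setting, and no member for the difference between breeds. No named gene's call changed sign. The causes were not tested, and the shares of all probe sets called in these settings are not given here. No paired analysis was made because the labels name no pairs and the groups share no replicate numbers. Sow numbers alternate between pregnant and non-pregnant animals, and neighbours such as 1 and 2 are of the same breed. Sows 11 and 12 were each other's nearest array (r = 0.992) and had the lowest lower quartiles, 4.58 and 4.59, whereas no other sow had its neighbour as nearest array. A block on neighbours was not fitted. With 6 against 6 arrays, and 3 against 3 within a breed, effects near the residual SD of the inducible genes could not be resolved.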
